A study of Mus musculus with 12 samples.

Results

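The 9 genes described here encode enzymes that keep reactive carbonyls and peroxides low in cells: Glo1, Hagh, Gsr, Gss, Gclc, Gclm, Gpx1, Gpx4 and Park7. They were chosen by name, because Glo1 and Gsr are known from earlier work as mouse anxiety genes and the others act in the same chemistry. All 9 were found by their Ensembl identifiers among the 47729 genes counted in the amygdala of 12 mice, and all 9 had at least 10 reads over the 11 mice compared.

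Methylglyoxal, a reactive by-product of glycolysis, is joined to glutathione and converted by glyoxalase 1 (Glo1) to a thioester that glyoxalase 2 (Hagh) splits into lactate and free glutathione. Glutathione itself is built in 2 steps, by glutamate-cysteine ligase (catalytic subunit Gclc, modifier subunit Gclm) and glutathione synthetase (Gss), is spent by glutathione peroxidases such as Gpx1 and Gpx4, and is regenerated by glutathione reductase (Gsr). Park7 encodes DJ-1, an antioxidant protein for which a glyoxalase activity has been described. In mouse studies the dose of Glo1 has been tied to anxiety-like behavior, and methylglyoxal can act on GABA-A receptors.

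The mice were inbred C57/BL6 females, bought at 7 weeks of age and tested at 9 weeks in the elevated plus maze, at 10 weeks in the light/dark box and at 11 weeks in a 3-chamber social test. No group carried a transgene or received a drug. Bilateral amygdala tissue of each mouse gave 1 stranded mRNA library, so each value below is 1 animal. The labels place 3 mice in a less anxious group (mice 3, 7 and 12), 4 in an anxious group (mice 1, 4, 8 and 11) and 4 in a more anxious group (mice 2, 6, 9 and 10), and mouse 5 has no group. The groups are tertiles of the second principal component (PC2) of the same expression data, a component that the authors picked because it followed the maze and light/dark measures. A difference between groups is therefore not independent of the expression data, and agreement between the group contrast and those measures is not independent support. PC2 recomputed here, with less anxious mice at the high end, did not place mouse 6 with its group. Mouse 6 scored 0.28, above the anxious mice 1 (-4.40) and 11 (-2.88). It also had the most time in the light (46.6%), distance in the light (41.9%) and open-arm time (29.2%) of all mice. Its label of more anxious was kept. Library totals ran from 31745630 to 45142355 estimated counts, and levels are given as CPM, counts scaled to a fixed library total, after edgeR's TMM scaling.

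Each gene was well covered. The lowest count of any of the 9 in a mouse was 368, for Gss, where counting alone gives an error of 5.21%, against a spread of 9.73% over the 11 mice. On a scale per length of annotated exon and per library total (RPKM), Gpx4, which removes lipid peroxides from membranes, had the highest mean level at 114 ± 18.9 (SD, n = 11). Park7 at 35.9 ± 4.47, Hagh at 30.6 ± 4.27 and Gpx1 at 30.6 ± 5.36 followed, and their ranges over mice overlapped. Gclc lay alone at 14.8 ± 0.799. Gsr at 7.84 ± 1.96, Gclm at 6.15 ± 1.08 and Glo1 at 5.44 ± 0.615 overlapped in turn, and Gss was lowest at 2.13 ± 0.207. The exon length counts every annotated exon, which comes to 12101 bases for Glo1 against 1724 for Gpx4, so a gene with many long exons that are little used has a lower value on this scale.

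The 9 genes differed in how much they varied from mouse to mouse. Gclc was the steadiest, with a highest-to-lowest ratio of 1.18, and Gsr the most variable, with a ratio of 2.34. The median SD of log2 CPM over the 11 mice was 0.20 for the 9 genes and 0.21 for the 15891 genes with a mean of at least 1 CPM.

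Glo1, at chr17:30584936-30626871 on the minus strand of GRCm38, stood close to 63 CPM in most mice. It measured 82.9, 64.9 and 63.1 CPM in the less anxious mice 3, 7 and 12, 63.6, 59.1, 62.9 and 67.0 CPM in the anxious mice 1, 4, 8 and 11, and 61.0, 63.0, 76.9 and 59.6 CPM in the more anxious mice 2, 6, 9 and 10. The highest value was thus in a less anxious mouse and the next in a more anxious mouse, and all 3 groups overlapped. The log2 fold change from less to more anxious mice was -0.07 ± 0.11 (SE), which as a fold has a 95% interval of 0.81 to 1.12, and the test over the 3 groups gave an adjusted p of 0.979 (edgeR quasi-likelihood test, Benjamini-Hochberg). Without mouse 3 the log2 fold change was 0.02.

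Hagh, the enzyme that follows Glo1, lies on the plus strand at chr17:24840143-24864450. Its level was 57.0, 48.8 and 46.3 CPM in the less anxious mice, 59.5, 54.1, 61.3 and 51.0 CPM in the anxious mice and 61.6, 63.5, 74.6 and 64.9 CPM in the more anxious mice. Every more anxious mouse lay above every less anxious mouse, with the anxious mice in between and overlapping the less anxious mice. The log2 fold change from less to more anxious mice was 0.40 ± 0.11 (SE), with an unadjusted p of 0.00818 and an adjusted p of 0.557 over all genes (edgeR). The gene overlaps Fahd1 on the opposite strand, which measured 15.5 CPM, and the sources used here do not say whether the counting used strand.

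Gsr, at chr8:33652523-33698163 on the plus strand, measured 19.5, 23.8 and 17.5 CPM in the less anxious mice. The anxious mice had 19.4, 13.7, 32.0 and 18.2 CPM and the more anxious mice 19.3, 30.0, 21.2 and 22.9 CPM. Both the lowest and the highest mouse, 4 and 8, were in the anxious group. The log2 fold change from less to more anxious mice was 0.11 ± 0.21 (SE), with a 95% interval of 0.79 to 1.48 as a fold, and the adjusted p was 0.977 (edgeR). The interval is the widest of the 9, so a difference in either direction within it could not be told from none with these mice. The 3 mice with the most Gsr, 8, 6 and 7, were also the 3 with the highest scores on the first principal component (PC1) of all genes, at 25.7, 23.2 and 18.2, and the same 3 had the most Gpx4. Their share of mitochondrially encoded reads was 11.6%, 11.2% and 11.1%, within a range of 10.6% to 15.9% over the 11 mice. The part of these library features in the Gsr levels was not tested.

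**Figure D1:**
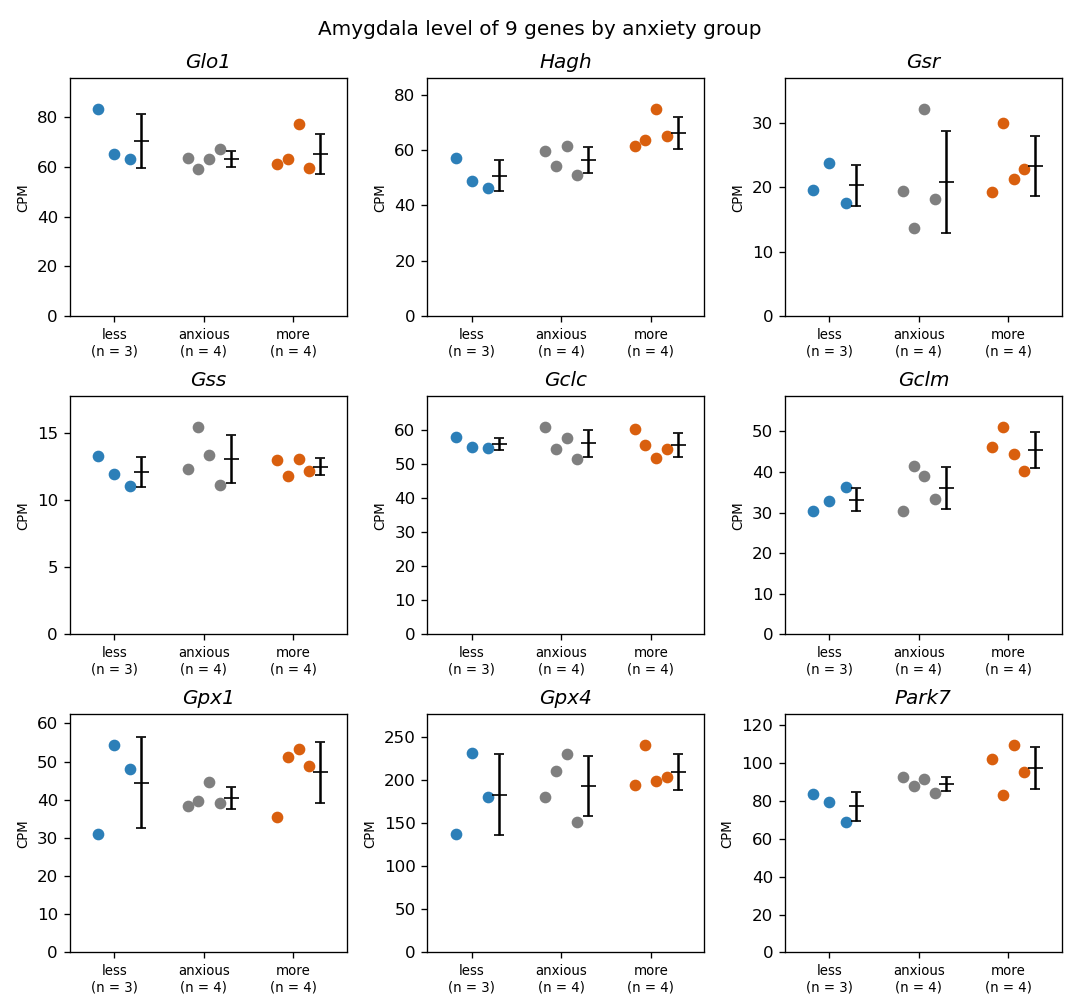
Level of each of the 9 genes in CPM (vertical axes from 0) in the less anxious, anxious and more anxious mice, with 1 point per mouse and the group mean ± SD as a bar beside the points. Hagh and Gclm are the panels in which the less and more anxious points do not overlap, and Glo1 stands out by a single less anxious mouse at 82.9 CPM.

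In glutathione synthesis, the 2 subunits of the rate-limiting enzyme had unlike log2 fold changes from less to more anxious mice, and neither passed adjustment. Gclc, the catalytic subunit, at chr9:77754535-77794485 on the plus strand, lay between 54.7 and 57.9 CPM in the less anxious mice, between 51.6 and 60.8 CPM in the anxious mice and between 51.9 and 60.3 CPM in the more anxious mice. Its log2 fold change was -0.01 ± 0.09 (SE), with a 95% interval of 0.864 to 1.14 as a fold. Gclm, the modifier subunit that raises the efficiency of the catalytic one, at chr3:122245557-122270732 on the plus strand, measured 30.4, 32.9 and 36.2 CPM in the less anxious mice, 30.3, 41.5, 39.0 and 33.3 CPM in the anxious mice and 46.1, 51.0, 44.5 and 40.3 CPM in the more anxious mice. All 4 more anxious mice exceeded all 3 less anxious mice, while 1 anxious mouse reached into the more anxious range. Its log2 fold change of 0.41 ± 0.11 (SE) was the largest of the 9, with an unadjusted p of 0.00296 and an adjusted p of 0.478 (edgeR). DESeq2's likelihood ratio test gave Gclm an adjusted p of 0.0557. Gclm overlaps the opposite-strand transcript Gm17494, which measured 17.8 CPM. Gss, which adds glycine, at chr2:155563181-155592810 on the minus strand, ranged from 11.04 CPM in mouse 12 to 15.4 CPM in mouse 4 and its groups overlapped, with a log2 fold change of 0.04 ± 0.13 (SE). It overlaps Acss2 on the opposite strand, at 39.1 CPM.

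Gclm is a textbook target of NRF2, a transcription factor that binds antioxidant response elements. The promoter windows available for the 9 genes were therefore searched for the core letters of that element. The letters TGACNNNGC, on either strand, occurred in 12.4% of the 32851 RefSeq promoter windows of GRCm38.p6, each reaching from 250 bases before to 50 bases after an annotated start. There were 11 windows for 7 of the 9 genes and none for Gsr or Gclc, which were not searched. Of the 11, 2 contained a match, 1 for Gclm and 1 of the 2 for Hagh. The Gclm match begins 134 bases before the start and reads on the opposite strand. The Hagh match, in the second of its 2 windows, begins 20 bases after the annotated start. The windows are shown because they hold a match, which the capitals mark. Whether the match has any part in the levels of these 2 genes was not tested. The upstream part of the Gclm window is chr3:122245307-122245556 and the stretch of Hagh is chr17:24850677-24850706, both on the plus strand.
Gclm: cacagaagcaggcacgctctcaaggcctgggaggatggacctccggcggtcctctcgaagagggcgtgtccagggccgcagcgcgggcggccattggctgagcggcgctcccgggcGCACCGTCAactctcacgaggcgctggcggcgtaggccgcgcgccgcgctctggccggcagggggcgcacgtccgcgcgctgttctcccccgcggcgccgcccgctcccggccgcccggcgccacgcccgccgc
Hagh: gtctaggtacTGACGCGGCgcggccgggtg
A match of these letters describes the sequence and does not show that a factor binds there. The windows of Glo1, Gss, Gpx1, Gpx4 and Park7 and the other window of Hagh held no match.

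The 2 peroxidases are selenoproteins, in which an in-frame TGA codon is read as selenocysteine at the active site. In GENCODE M21 this is codon 47 of 201 in the transcript Gpx1-201, at chr9:108339451-108339453, and codon 129 of 253 in the transcript Gpx4-201, at chr10:80054737-80054739, both on the plus strand. The codon is in capitals in the stretches of mRNA below, which show the site that the 2 share.
Gpx1: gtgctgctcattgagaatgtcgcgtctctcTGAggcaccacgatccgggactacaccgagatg
Gpx4: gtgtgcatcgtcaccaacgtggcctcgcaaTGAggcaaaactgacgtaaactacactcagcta
Gpx1, a cytosolic enzyme that removes hydrogen peroxide, lies on the plus strand at chr9:108338903-108340343. It measured 31.1, 54.2 and 48.1 CPM in the less anxious mice, 38.5, 39.8, 44.7 and 39.2 CPM in the anxious mice and 35.5, 51.2, 53.3 and 49.0 CPM in the more anxious mice. Mouse 3 had the least Gpx1 and mouse 7 of the same group the most, so the spread within the less anxious group exceeded any distance between group means. Gpx4, on the plus strand at chr10:80047166-80056439, measured 138, 232 and 181 CPM in the less anxious mice, 181, 211, 231 and 152 CPM in the anxious mice and 194, 241, 199.7 and 204 CPM in the more anxious mice. Mouse 3 was again the lowest of the 11. Its library was also at the edge over all genes. It had the lowest PC1 score (-26.5), the highest PC2 score (29.1) and the fewest genes with a read (26378) of the 11. The part of these library features in its Glo1, Gpx1 and Gpx4 levels was not tested. The log2 fold change was 0.06 ± 0.16 (SE) for Gpx1 and 0.13 ± 0.10 (SE) for Gpx4, and their adjusted p-values were 0.938 and 0.926 (edgeR).

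Park7, at chr4:150897133-150914437 on the minus strand, measured 83.7, 79.4 and 68.9 CPM in the less anxious mice. The anxious mice had 92.8, 88.0, 91.6 and 84.5 CPM and the more anxious mice 102, 83.1, 109 and 95.2 CPM. The 4 anxious mice all lay above the 3 less anxious mice, and among the more anxious mice only mouse 6, at 83.1 CPM, reached down to the less anxious range. Its log2 fold change from less to more anxious mice was 0.35 ± 0.10 (SE), with an unadjusted p of 0.0174 and an adjusted p of 0.662 (edgeR).

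**Figure D2:**
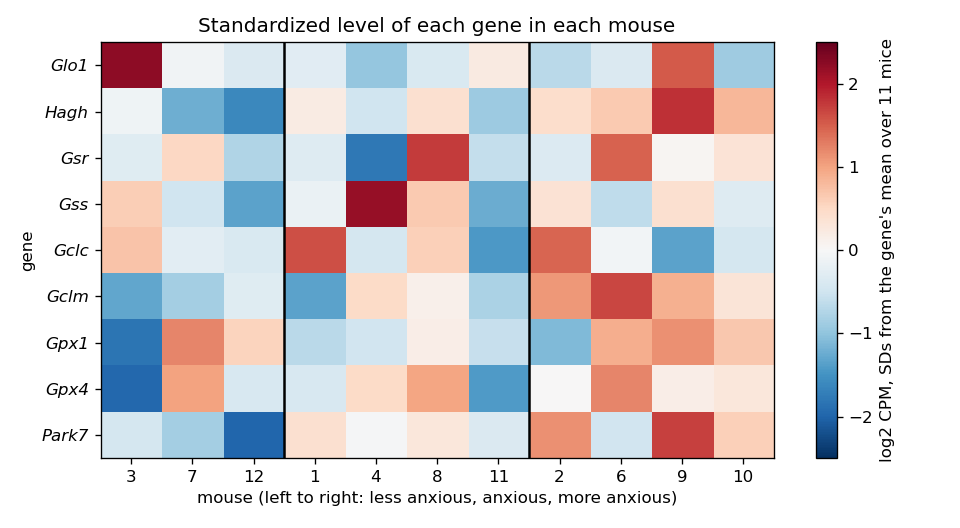
Standardized level of each gene (rows) in each of the 11 mice (columns, ordered by group with lines between groups), where color gives log2 CPM as SDs from that gene's mean over the mice. Mouse 3, at the left, has the highest Glo1 with the lowest Gpx1 and Gpx4, and the columns of the more anxious mice at the right are red for Hagh and Gclm and, in 3 of 4, for Park7.

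Over the 3 groups, none of the 9 genes passed an adjusted p of 0.05 with edgeR, which called 0.00742% of all 26963 genes tested. None passed with DESeq2, which called 1.05% of the 17784 genes to which it gave an adjusted p. At an unadjusted p under 0.05, 3 of the 9 genes were found, Hagh, Gclm and Park7, each higher in more anxious mice, against 6.4% of all genes (4.09% higher and 2.31% lower in more anxious mice). Without mouse 9, 1 of the 9, Gclm, had an unadjusted p under 0.05, and the values of Hagh and Park7 were then 0.0553 and 0.0594 (edgeR, unadjusted). Without mouse 12, 2 of the 9 did, and Park7 was at 0.0863. Without mouse 2, 4 of the 9 did, with Gpx1 added at 0.0361 (edgeR, unadjusted). The less and more anxious mice did not overlap for 2 of the 9 genes, both higher in more anxious mice, against 8.4% of all genes in either direction, 4.57% higher and 3.83% lower. Without mouse 3, non-overlap was found for 4 of the 9, with Park7 and, narrowly, Gss added, and it was found for 3 without mouse 6 (Park7 added), without mouse 7 (Gpx4 added) or without mouse 9 (Glo1 added). Without mouse 9, Glo1 was narrowly lower in the more anxious mice, at 59.7 to 63.5 CPM against 63.5 to 83.7 CPM in the less anxious mice, while the genes added without mouse 3, 6 or 7 were higher. Leaving out a mouse makes non-overlap easier in any gene. The share of all genes was not computed for these smaller sets, so their counts have no background beside them. The median log2 fold change from less to more anxious mice was 0.11 over the 9 genes and 0.01 over all genes tested, and 7 of the 9 were positive. These p-values measure the spread between single mice.

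Genes of the surrounding pathways were examined in 7 lists: other glyoxalase pathway genes, other peroxidases and peroxiredoxins, glutathione transferases, glutathione breakdown and cysteine supply, thioredoxins and glutaredoxins, NRF2 regulators and targets, and NADPH supply. Of 90 listed genes 87 were tested, and edgeR called none at an adjusted p of 0.05. At an unadjusted p under 0.05, 4 were higher and 4 lower in more anxious mice. Together these were 9.2% of the list, against 6.4% of all genes tested (edgeR). The median log2 fold change of the 87 was -0.01. DESeq2 called 1 of the 87, against 1.05% of the 17784 genes to which it gave an adjusted p, so the single call is near that share. This was Slc7a11, which codes for the cystine importer that supplies cysteine for glutathione, with an adjusted p of 0.00589 against 0.316 with edgeR. Slc7a11 measured 45.1, 41.3 and 40.7 CPM in the less anxious mice, 37.1, 26.8, 25.0 and 32.0 CPM in the anxious mice and 28.0, 28.3, 27.3 and 29.9 CPM in the more anxious mice. It was thus lower in all 8 mice of the anxious and more anxious groups than in the less anxious mice. The less and more anxious mice did not overlap for 8.4% of all genes, 4.57% higher and 3.83% lower. Of the 87 pathway genes, 3 were higher and 5 lower in this way.

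NRF2 itself, encoded by Nfe2l2, and Keap1, the adaptor that targets it for degradation, gave log2 fold changes of -0.31 ± 0.16 and -0.13 ± 0.12 (SE), with adjusted p-values of 0.907 and 0.940 (edgeR). Nnt, which encodes a mitochondrial transhydrogenase that can supply NADPH, measured 21.1 ± 1.71 CPM (SD, n = 11) and its log2 fold change was 0.04 ± 0.12 (SE). The paper names Jackson Labs as the supplier of the mice and gives no C57BL/6 substrain. A gene-level RNA value does not show whether these mice make a working Nnt enzyme. The other genes named by smallest unadjusted p point both ways. Sod1, the cytosolic superoxide dismutase, and Glrx5, a mitochondrial glutaredoxin of iron-sulfur cluster assembly, had positive log2 fold changes of 0.36 ± 0.10 and 0.43 ± 0.12 (SE). Nadk2, the mitochondrial NAD kinase, Ggt5, a gamma-glutamyl transferase family member, and Txnip, an inhibitor of thioredoxin, had negative ones of -0.45 ± 0.11, -0.92 ± 0.27 and -0.47 ± 0.15 (SE). Ldhd, the D-lactate dehydrogenase that handles the end product of the glyoxalase route, had 0.15 ± 0.13 (SE), with its lowest mean in the anxious mice. The adjusted p-values of these 6 genes ran from 0.495 for Nadk2 to 0.728 for Ldhd (edgeR).

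**Figure D3:**
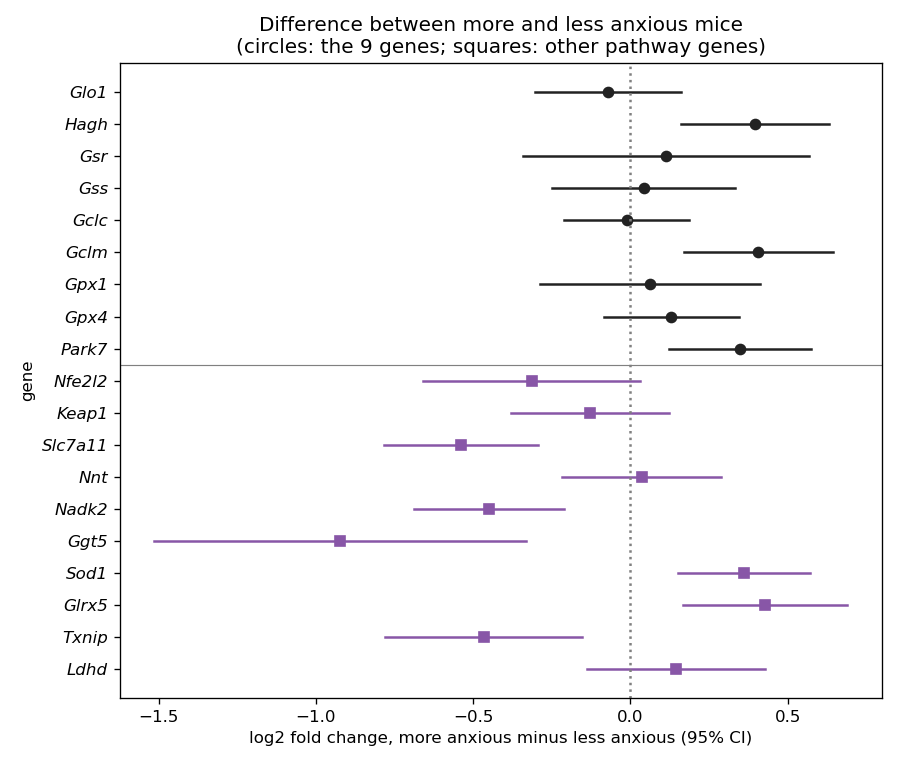
Log2 fold change from less to more anxious mice with its 95% interval for the 9 genes (circles) and 10 other pathway genes (squares), from the edgeR fit with PC1 as covariate. The intervals of Hagh, Gclm and Park7 lie above 0 and that of Slc7a11 below it, before adjustment for the 26963 genes tested.

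Some of these genes are richer in one brain cell type than in another, and in bulk tissue fewer cells of a type and less RNA per cell cannot be told apart. Astrocyte markers summed to 2874 to 3511 CPM in the less anxious and 2380 to 2757 CPM in the more anxious mice, with 7 of 7 markers lower. Neuron markers summed to 3651 to 3901 CPM in the less anxious and 3831 to 4802 CPM in the more anxious mice, with 5 of 5 higher. Striatal-type neuron markers had the largest median difference of the marker lists, a log2 fold change of -0.82 with 5 of 5 lower, and summed to 122 to 418 CPM in the less anxious, 90.1 to 171 CPM in the anxious and 85.4 to 234 CPM in the more anxious mice. Their Adora2a ranged from 1.41 to 47.7 CPM over the 11 mice. Oligodendrocyte (6 of 6), microglia (6 of 6) and endothelial markers (4 of 4) were lower in the more anxious mice by their fitted values, as were 4 of 5 choroid plexus and 6 of 8 amygdala neuron markers, while 3 of 5 red blood cell markers were higher. The choroid plexus list summed to at most 23.8 CPM and the red blood cell list to at most 118 CPM. No marker was at 0 in all mice. The amygdala neuron list summed to between 1482 and 2047 CPM, most of it from Slc17a7, Gad1, Gad2 and Slc17a6, which mark excitatory and inhibitory neurons in general. Its genes of amygdala nuclei were low but present in every mouse, at 5.71 to 17.4 CPM for Rspo2, 7.98 to 23.5 CPM for Prkcd, 19.1 to 75.1 CPM for Cyp26b1 and 22.0 to 60.0 CPM for Dlk1. The part of cell composition and of the tissue taken in the levels of Hagh, Gclm, Park7 and Slc7a11 was not tested.

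Behavior was compared with expression mouse by mouse, across 7 measures that were not made from expression. Less time on the open arms of the maze and less time or distance in the light are commonly read as more anxiety, and the box:zone ratios come from the social test, in which the study describes the box as direct and the zone as distant contact with an unfamiliar mouse. The labels give no formula for the ratio. None of the 63 relations between the 9 genes and the 7 measures passed an adjusted p of 0.05. With edgeR the adjusted p-values ran from 0.473 to 0.999. Of all genes, edgeR called 0.00742% against time in the light, 0% against distance in the light, open-arm time and total entries, and 0.015%, 0.0111% and 0.0223% against the ratios at 3, 5 and 10 min. DESeq2 called none of the 63 either. Of the genes to which it gave an adjusted p, it called 0.0145%, 0.101%, 0.225% and 0.186% against the first 4 measures. Against the 3 ratios it called 1.05%, 0.197% and 0.58%. The number of such genes differed by measure, from 15659 for the 3-min ratio to 34511 for time in the light. At an unadjusted p under 0.05, 9 of the 63 were found, against 6.35% of all gene and measure pairs with edgeR. By measure, in the same order, these background shares were 3.56%, 5.84%, 5.9%, 7.06%, 7.62%, 6.52% and 7.98%, and the members' counts were 0, 1, 2, 1, 2, 1 and 2 of 9.

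Glo1 had a slope of -0.0011 ± 0.051 (SE) on open-arm time, on the log2 scale per SD of the measure, and Gsr had 0.06 ± 0.10 (SE), with adjusted p-values of 0.999 and 0.973 (edgeR, n = 11 mice). The SD of open-arm time was 9.49 percentage points. Neither gene kept its sign when PC1 was added as a covariate, at 0.04 for Glo1 and -0.02 for Gsr. Glo1 did have positive slopes on all 3 social ratios, of 0.10 ± 0.04 at 3 min, 0.11 ± 0.04 at 5 min and 0.11 ± 0.04 at 10 min (SE), with unadjusted p-values of 0.0463, 0.0139 and 0.0168 and adjusted p-values from 0.532 to 0.650 (edgeR). The 3 ratios share the same session. Mouse 3 had both the most Glo1 and the highest ratio at 10 min, 2.62, and without it the slopes were 0.06, 0.05 and 0.03 with unadjusted p-values of 0.181, 0.221 and 0.453 (edgeR).

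Park7 had the steepest slope of the 63. The 3 mice with the least open-arm time, mice 2, 10 and 9 at 2.33%, 3.25% and 4.30%, had 102, 95.2 and 109 CPM, while the 3 with the most, mice 7, 12 and 6 at 24.5%, 24.6% and 29.2%, had 79.4, 68.9 and 83.1 CPM. The slope was -0.15 ± 0.04 (SE) on the log2 scale per SD of open-arm time, with an unadjusted p of 0.00145 and an adjusted p of 0.473 with edgeR and 0.0613 with DESeq2. It stayed between -0.17 and -0.13 whichever mouse of the fit was left out. Mouse 5, outside the fit, had 7.34% of time on the open arms and 73.9 CPM of Park7. With mouse 5 included, the lowest adjusted p of the 63 relations was 0.622 (edgeR). Park7 also had negative slopes on total maze entries, -0.13 ± 0.04, and on distance in the light, -0.11 ± 0.05 (SE), with unadjusted p-values of 0.00882 and 0.0255 (edgeR).

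Hagh had a slope of -0.12 ± 0.05 (SE) on open-arm time, with an unadjusted p of 0.0277 and an adjusted p of 0.774 (edgeR). Mouse 6, a more anxious mouse by its label with 29.2% of time on the open arms, had 63.5 CPM and lay apart from the other mice in this relation. Without mouse 6 the slope was -0.18, and without mouse 9 it was -0.08. On the 3-min social ratio, which 10 mice had, Hagh had a slope of 0.14 ± 0.05 (SE), with an unadjusted p of 0.0187 (edgeR), which became 0.09 without mouse 9 and 0.21 with PC1 as covariate. Gpx4 had a slope of -0.14 ± 0.06 (SE) on the 10-min ratio, with an unadjusted p of 0.0413 (edgeR). It too rested on mouse 3, which had the least Gpx4, and was -0.02 without that mouse and -0.05 with PC1 as covariate. Gss, Gclc, Gclm, Gpx1 and Gsr had no relation with an unadjusted p under 0.05.

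**Figure D4:**
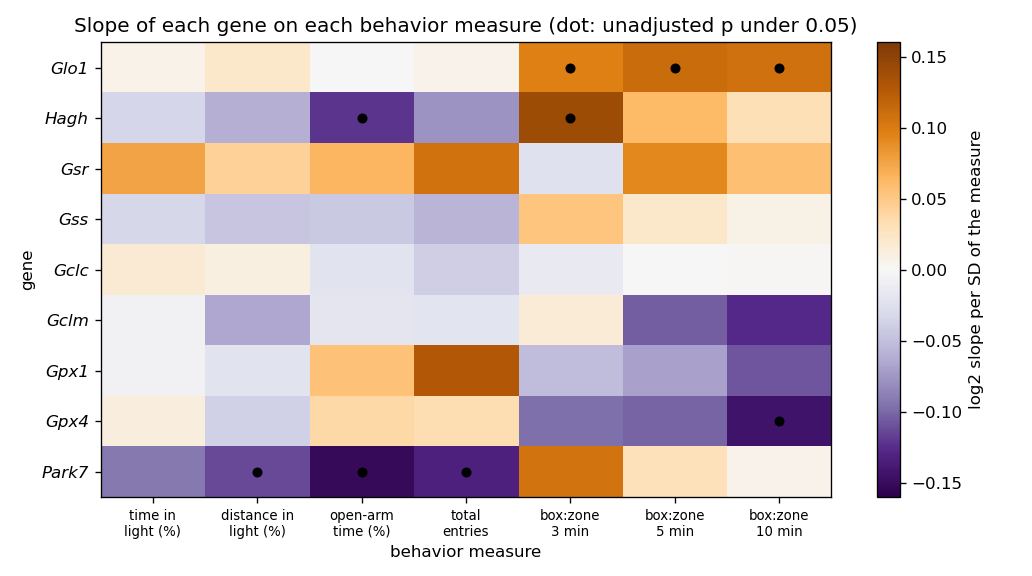
Slope of log2 expression per SD of each behavior measure (columns) for each of the 9 genes (rows), with a dot where the unadjusted edgeR p was under 0.05. The 9 dots fall on Park7 (3), Glo1 (3), Hagh (2) and Gpx4 (1), and none passed adjustment over all genes.

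**Figure D5:**
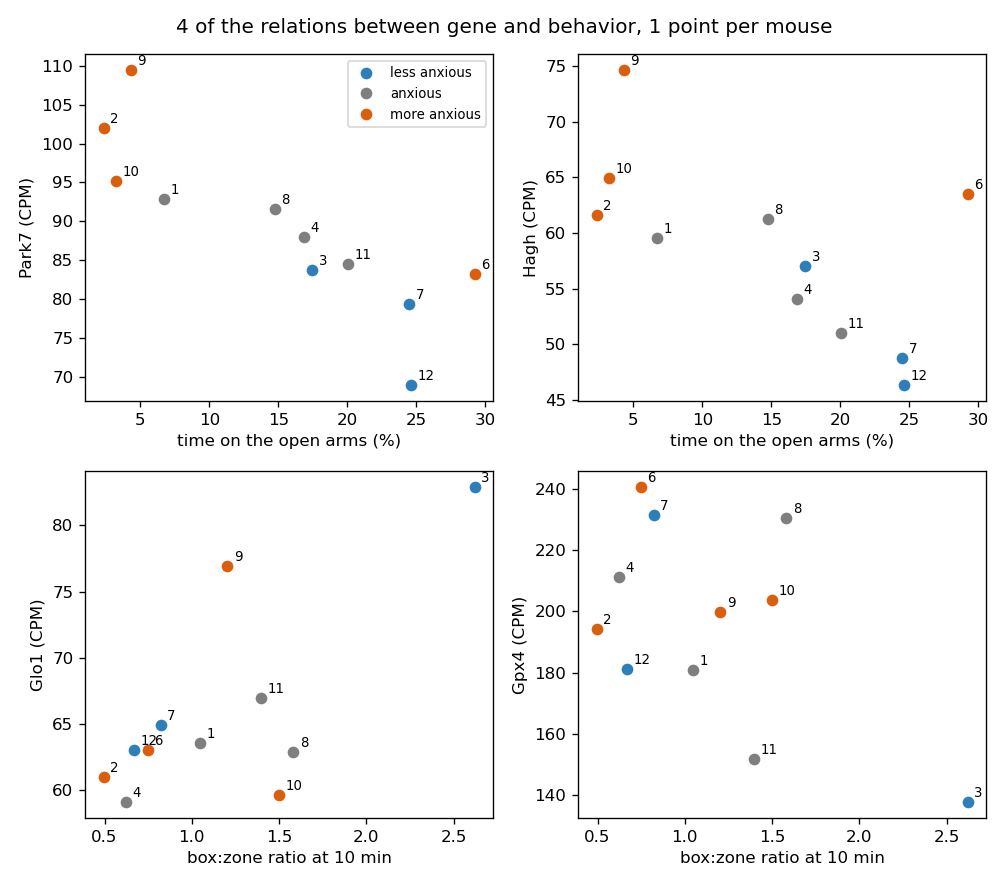
Level in CPM (vertical axes do not start at 0) of Park7 and Hagh against percent of time on the open arms, and of Glo1 and Gpx4 against the 10-min box:zone ratio, with 1 numbered point per mouse colored by group. Park7 runs from 109 CPM in mouse 9 to 68.9 CPM in mouse 12, and in both lower panels mouse 3, at a ratio of 2.62, lies apart from the others.

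Partners in a pathway were then compared across the 11 mice, in 3 pairs tested with 100000 permutations, two-sided. Glo1 and Hagh, consecutive enzymes, had a Pearson r of 0.20 (permutation p = 0.553, adjusted over the 3 pairs 0.961) and a Spearman rho of -0.17 (permutation p = 0.615, adjusted 0.818), and without mice 3 and 9 r was -0.46. Gclc and Gclm, subunits of 1 enzyme, had an r of -0.16 (permutation p = 0.641, adjusted 0.961) and a rho of -0.23 (permutation p = 0.503, adjusted 0.818), and without mice 1 and 2 r was -0.17. Glo1 and Gsr had an r of 0.0050 (permutation p = 0.988, adjusted 0.988) and a rho of 0.08 (permutation p = 0.818, adjusted 0.818), and without mice 3 and 9 r was 0.23. No relation was detectable in these pairs with 11 mice.

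The genes most like Glo1 in their pattern over the 11 mice, of 15890 compared, were Tusc3, with a Pearson r of 0.95 and a Spearman rho of 0.72, Nudt16 (0.94 and 0.81), Acaa1a (0.93 and 0.59), Eif3f (0.93 and 0.90) and Dhrs13 (0.92 and 0.92). Those most like Gsr were Calm2, with a Pearson r of 0.94 and a Spearman rho of 0.91, Nectin4 (0.92 and 0.84), Mcts2 (0.91 and 0.95), Ncbp2 (0.91 and 0.85) and Ap2m1 (0.89 and 0.84). These points share libraries and their scaling, and the values are the highest of many, given as a description.

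Glo1 lies within a stretch of chromosome 17 that is duplicated in some laboratory strains together with its neighbours. All mice here were of 1 inbred strain, C57/BL6, and copy number was not tested. Btbd9, the neighbour at lower coordinates, measured 43.3 to 60.6 CPM over the 11 mice, with a highest-to-lowest ratio of 1.40, about that of Glo1. Dnah8, which overlaps the annotated 5′ end of Glo1 on the opposite strand, had 0.248 to 0.599 CPM, and Glp1r had 0 to 0.470 CPM, and the library at 0 allows up to 3 counts, or 0.0836 CPM. None of the 3 neighbours had an unadjusted p under 0.05 over the 3 groups (edgeR). The less and more anxious mice did not overlap for Glp1r, at 0.249 to 0.470 CPM and 0 to 0.180 CPM, on 0 to 18 counts a library over the 11 mice.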

How the data were processed

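The deposited values are estimated counts (expected counts) per gene, given by the authors as whole numbers and not scaled, for 47729 genes in 12 mice. The authors made them with Salmon and tximport after trimming by cutadapt, and used STAR alignments to mm10 to judge quality. Tool versions and the strand setting of the counting are not given in the sources used here. Salmon divides reads that fit several transcripts, which makes the counts of overlapping genes less certain.

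Gene names and coordinates came from GENCODE M21 (GRCm38), which held 47310 of the identifiers. Groups and behavior came from the sample labels, and mouse 5, which the authors removed as an outlier, was left out of the comparisons. Genes with at least 10 reads over 11 mice (26963) were fitted with edgeR 4.0.16 in R 4.3.3 (TMM scaling, robust quasi-likelihood F-test, both group coefficients together, PC1 of DESeq2 1.42.0's variance-stabilized counts as covariate). Each behavior measure was fitted alone as a standardized number. Adjusted p-values (Benjamini-Hochberg) under 0.05 over all genes were called, and DESeq2's likelihood ratio test was the alternative. Log2 CPM used a prior count of 2. Scripts were tested on simulated data. Intervals are 95%, and intervals and count floors cover, respectively, the spread between mice and counting error only.

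The 9 genes, the pathway and marker lists and the tests were chosen with earlier results of these data known. Besides the 9 genes, the text names Nfe2l2, Keap1, Slc7a11, Nnt and the 6 other pathway genes with the smallest unadjusted p, the neighbours of Glo1, and the 5 genes most like Glo1 and Gsr by Pearson r among genes with a mean of at least 1 CPM. As alternatives, the scaling, the filter on low counts, the test, the covariate and the coding of groups and measures were varied, mouse 5 was added to the behavior fits, and single mice were left out.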

Additional observations from a re-analysis of the deposited data

Results flagged for a closer look

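Mouse 5 has no group in the labels, since the authors removed it as an outlier in a principal component analysis, and 23768 genes had a read in it against 26378 to 28196 in the others. Its levels were scaled together with the other 11 mice. Glo1 at 72.2 CPM, Gsr at 19.5 CPM, Gss at 11.6 CPM, Gclc at 54.9 CPM, Gclm at 40.3 CPM and Park7 at 73.9 CPM lay within the range of the other mice. Hagh at 42.5 CPM, Gpx1 at 26.3 CPM and Gpx4 at 112 CPM lay below the lowest of the others, which were 46.9, 30.9 and 137 CPM. In the groups of 4 mice, the distance of the highest and lowest mouse from the rest was checked for the 9 genes and the 10 other pathway genes named, 38 checks in all. It passed Dixon's 95% value once, for Glrx5 in mouse 9 of the more anxious group, at 28.3 CPM against 22.7 to 23.2 CPM in the other 3, and chance flags about 1 in 20 such groups.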

How the results depend on the processing

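The counts of called genes stayed at 0 of the 9 across the groups and 0 of 63 relations with behavior under every alternative that was run. The number of the 9 genes whose less and more anxious mice did not overlap ran from 2 to 4 with 1 mouse left out. Fewer mice make non-overlap easier in any gene, and no share over all genes was computed for those sets. The log2 fold changes of Hagh, Gclm and Park7 from less to more anxious mice stayed positive with each mouse left out, at 0.32 to 0.48, 0.27 to 0.48 and 0.27 to 0.41, and Gpx4 ran from 0.07 to 0.18. That of Glo1 ran from -0.16 to 0.020 and that of Gsr from 0.04 to 0.24. The signs of the small differences were not stable, and the cause was not tested: Gclc ran from -0.063 to 0.027, Gpx1 from -0.10 to 0.19 and Gss from -0.018 to 0.14. On open-arm time, the slope of Glo1 turned positive with DESeq2 size factors (0.0017), DESeq2's likelihood ratio test (0.0017), PC1 as covariate (0.035) and ranks of the measure (0.010), and ran from -0.022 to 0.036 with 1 mouse left out. Gsr ran from -0.033 to 0.10 and Gclm from -0.12 to 0.021. Gpx4 ran from -0.019 to 0.059. With PC1 as covariate Gsr was -0.016 and Gpx4 -0.055. The slope of Hagh on the 3-min ratio was 0.21 (unadjusted p = 0.00193, edgeR) with PC1 as covariate, and that of Gpx4 on the 10-min ratio -0.05 with PC1 as covariate and -0.08 with ranks. The paper reports PC1 as negatively correlated with these social measures. The slope of Park7 on distance in the light was -0.07 with mouse 5 included. The correlation of Glo1 with Hagh ran from -0.15 to 0.34, of Gclc with Gclm from -0.40 to 0.10 and of Glo1 with Gsr from -0.24 to 0.12. The relations with behavior at an unadjusted p under 0.05 numbered 5 to 10 over the alternatives, 5 with mouse 5 included or without mouse 9. No paired analysis was possible because each mouse is in 1 group and the replicate numbers only follow the order of the samples. With 3 or 4 mice a group, the 95% interval of Gsr left room for folds from 0.79 to 1.48.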
